A study of Mus musculus with 2 samples.

Results

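The collagen chains are the genes whose symbol in the count table has the form of a type number and a chain number, such as Col1a1. The table held 44 of them among 46095 genes, 11 coding for fibrillar chains, 6 for the basement membrane chains of type IV and 27 for chains of other types. They were read in macrophages grown from the marrow of C57BL/6 mice for 5 days in DMEM with 100 ng/ml of the growth factor M-CSF, and each genotype was represented by 1 RNA library. The KO library, with TIPE1-/- as its genotype label, came from mice carrying LyzM-Cre and floxed Tipe1 alleles by the series' design text. The WT library, labelled wild type, came from mice that the same text describes as floxed and without Cre. LyzM-Cre expresses the recombinase from the lysozyme locus in myeloid cells, so in the KO mice the deletion is directed to those cells, while other cells in a marrow culture would keep the gene. No source used here gives the age or number of the mice, or says whether animals were pooled.

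Collagens are secreted proteins in which 3 chains wind around each other, and each type is built from its own set of chains. Fibrillar collagens assemble into the cables of bone, skin and tendon, type IV forms the sheet beneath epithelia and vessels, and the other types bind to fibrils, form fine filaments or networks, or span the cell membrane. In marrow, fibroblasts, reticular cells and osteoblasts are the main known producers of the fibrillar types, whereas macrophages are better known for taking up and degrading collagen.

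Expression is given as CPM, read counts scaled to an effective library size of 1e6 reads, and KO over WT as a ratio of CPM with a 95% interval from the counts. The libraries held 11782664 (WT) and 15815956 (KO) counted reads, and 3 reads corresponded to 0.248 and 0.194 CPM. With 1 library per genotype no difference below has a replicate check, no p-value was computed, and the intervals cover counting error only. Whether 2 cultures of 1 genotype would differ as much was not measured. Tnfaip8l1, the gene for TIPE1, had 21 reads in WT and 3 in KO, 8.94-fold lower (2.67 to 46.8). Its mean of 0.967 CPM is under the level of 1 CPM used as a filter below, and its interval is wide. Macrophage identity was visible in both libraries: Csf1r, the M-CSF receptor, stood at 2646 CPM in WT and 2414 CPM in KO, and Cd68 at 1493 and 1589 CPM. Of 8 macrophage markers 1, Adgre1, was at least 2-fold higher in KO, at 1064 and 2554 CPM, against 2.02% of all genes averaging 1 CPM or more. The other 7 were within 2-fold, among them Fcgr1 with a ratio of 1.27, Itgam with 1.33 and Lyz2, the locus that carries the Cre, with 0.537.

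Most collagen RNA was lower in the KO library, but the chains did not move as a block. All 44 chains together summed to 2142 CPM in WT and 295.6 CPM in KO, which is 7.25-fold lower (7.02 to 7.48). The fibrillar chains, with 1615 against 136.1 CPM, were 11.9-fold lower (11.3 to 12.4). The type IV chains, with 26.7 against 8.75 CPM, were 3.06-fold lower (2.49 to 3.76), and the other types, with 500.2 against 150.8 CPM, 3.32-fold lower (3.16 to 3.48). The intervals of the type IV and other chains overlap each other, and the fibrillar interval lies apart from both. The order of the last 2 classes depends on where the basement membrane zone chains Col7a1, Col15a1 and Col18a1 are placed. With them moved to the type IV chains, that class was 1.32-fold lower (1.23 to 1.41) and the remaining other types 7.09-fold lower (6.59 to 7.64). Col18a1 made up much of the other types in the KO library. Without it all collagen chains together were 10.1-fold lower (9.77 to 10.5).

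Averaged over WT and KO, 23 chains reached 1 CPM (called tested here), of which 18 were at least 2-fold lower in the KO library on the scale of log2(CPM + 0.5), 0 at least 2-fold higher and 5 within 2-fold. Over all 12495 genes tested, 3.95% were at least 2-fold lower and 2.02% at least 2-fold higher. At least 4-fold lower were 13 of the 23 chains, against 1.76% of all genes, and at least 8-fold lower were 9, against 0.536%. The whole counting interval lay past 2-fold lower for 16 chains, against 2.78% of all genes. The median log2 ratio of the 23 chains was -2.32, or -1.19 over the 36 chains with a read, while that of all genes tested was 0.01. The level filter bears on these counts. Of the 23 chains 15 had at least 1 CPM in both libraries, 12 of them 2-fold lower, against 221 of 11811 genes, or 1.87%. The other 8 (Col4a5, Col8a1, Col9a3, Col11a1, Col14a1, Col15a1, Col16a1 and Col27a1) reached the level through the WT library alone, where 6 of 8 chains were 2-fold lower against 273 of 440 genes, or 62.0%. The filter itself favours lower calls there, and nothing is read from those 6. The counts and medians given for the tested chains, as a whole and by class, still include chains of this kind. No chain passed through the KO library alone. Of the 31 chains with over 3 reads in a library, 29 had a ratio below 1. The interval lay wholly below 1 for 21 of them, above 1 for 1 and held 1 for 9. The same counts were not taken over all genes, so these describe the chains and nothing more is read from them.

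**Figure D1:**
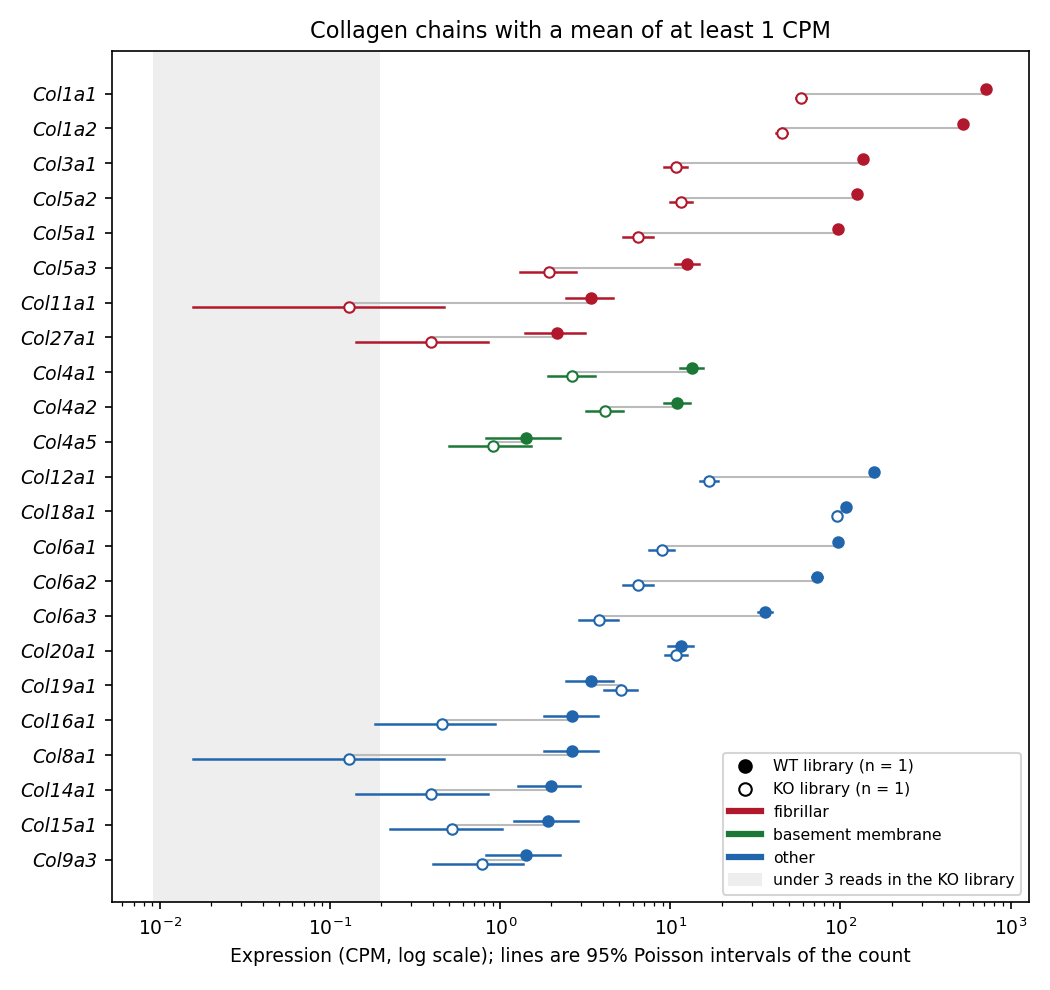
Expression of the 23 collagen chains averaging 1 CPM or more (x axis, CPM on a log scale) for WT (filled circles) and KO (open circles), with 95% Poisson intervals of each count as lines and colours for the 3 classes. Most pairs lie far apart, as for Col1a1 at 714 and 58.9 CPM, whereas those of Col18a1, Col20a1 and Col19a1 lie close together.

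Markers of matrix-producing stromal cells were mostly lower in KO as well, by unequal amounts. Of 14 fibroblast and stromal marker genes, none of them a collagen, 12 were tested, with a median log2 ratio of -2.96. At least 2-fold lower in KO were 11, against 3.95% of all genes tested, and 1, Thy1, was within 2-fold. Cxcl12, 1 of the 11, was under 1 CPM in KO and passed the filter through WT alone, so its call is not read. The summed expression of the 14 markers was 590.7 CPM in WT and 64.0 CPM in KO, 9.22-fold lower (8.63 to 9.87). Acta2, smooth muscle actin, was 17.9-fold lower, Prrx1, a transcription factor of limb and bone mesenchyme, 13.6-fold, the matrix glycoprotein gene Sparc 11.9-fold and Postn, periostin, 12.7-fold lower. Tagln was listed at 0 in both libraries although Acta2 had 631 reads in WT, so a 0 in this table is not read as absence of the RNA. Their part in the collagen result was not tested. In a bulk library fewer cells of a type and less RNA per cell cannot be told apart.

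All collagen chains together had 363 reads per 100 reads of the stromal markers in WT and 462 in KO, a change of 1.27-fold (1.18 to 1.37) that does not depend on library scaling. Col18a1 alone had 18.3 and 148, a change of 8.11-fold (7.33 to 8.98). Without Col18a1, Col19a1 and Col20a1, left out because their levels were seen to be close between the libraries, the chains had 342 and 288, a change of 0.844-fold (0.781 to 0.912). The same figure for the fibrillar chains was 273 and 213, for Col12a1 26.8 and 26.5, and for the type IV chains 4.53 and 13.7. Relative to these markers, the change was 0.777-fold (0.717 to 0.843) for fibrillar chains, 0.990-fold (0.853 to 1.15) for Col12a1 and 3.02-fold (2.42 to 3.74) for type IV. Of the other marker lists, osteoblast genes without Spp1, which macrophages express in quantity, summed to 41.6 CPM in WT and 12.5 CPM in KO. Alpl, the bone alkaline phosphatase, had 198 and 8 reads, Runx2 169 and 123, and Bglap and Dmp1 were listed at 0. Of the 9 osteoblast genes 5 were tested, 2 at least 2-fold lower, against 3.95% of all genes tested, and 3 within 2-fold. The 2 lower genes, Alpl and Sp7, were under 1 CPM in KO and passed the filter through WT alone, so their calls are not read. All 6 chondrocyte markers in the table were under 1 CPM, with Acan and Matn3 listed at 0. Of 7 endothelial genes 4 were tested, 1 at least 2-fold lower, against 3.95% of all genes tested, and 3 within 2-fold. All 7 summed to 50.1 CPM in WT and 55.4 CPM in KO, with Cldn5 listed at 0. Of the more abundant endothelial genes Vwf had 215 and 495 reads, Kdr 162 and 165, and Pecam1 142 and 159. Cdh5, the cadherin of endothelial junctions, had 65 and 29 reads, 2.86-fold lower (1.82 to 4.60), and Emcn 18 and 6, under a mean of 1 CPM. The adipocyte genes Adipoq, Lep, Plin1 and Cidec were listed at 0 in both libraries, and Fabp4, which macrophages also express, stood at 170.4 and 178.2 CPM.

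Of the abundant fibrillar chains, Col1a1, Col1a2, Col3a1, Col5a1 and Col5a2 were each over 10-fold lower in KO. Col1a1 (GRCm38 chromosome 11, 94936224 to 94953042) encodes the alpha 1 chain of type I collagen, the main protein of bone. It had 8627 reads in WT and 909 in KO, 714 and 58.9 CPM, 12.1-fold lower (11.3 to 13.0). Its partner Col1a2 (chromosome 6, 4504814 to 4541544) had 6313 and 695 reads, 522.7 and 45.04 CPM, 11.6-fold lower (10.7 to 12.6). Col3a1 (chromosome 1, 45311538 to 45349706), whose product forms thin fibrils with type I in soft tissue and marrow stroma, had 1629 and 166 reads and was 12.5-fold lower (10.7 to 14.8). The 3 intervals overlap, so no order among these chains is resolved.

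Type V chains lie inside type I fibrils and start their assembly. Col5a1 (chromosome 2, 27886425 to 28039514) had 1171 reads in WT and 100 in KO, 97.0 and 6.48 CPM, 15.0-fold lower (12.2 to 18.5), and only 5 of the 12495 tested genes had a lower log2 ratio. Col5a2, which lies 24.6 kb from Col3a1 on chromosome 1 in tail-to-tail orientation, had 1517 and 179 reads and was 10.8-fold lower (9.27 to 12.7). Col5a3 was lower by less than Col5a1, with 151 and 30 reads, 12.5 and 1.94 CPM, 6.43-fold lower (4.32 to 9.86). The interval of Col5a3 overlaps that of Col5a2 and not that of Col5a1.

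The remaining fibrillar chains were rare. Col11a1, a chain of cartilage fibrils that also pairs with type V chains, had 41 reads in WT and 2 in KO, a 26.2-fold lower level whose interval runs from 6.80 to 223. Col27a1, a fibrillar chain with a shortened helix, had 26 and 6 reads and was 5.54-fold lower (2.23 to 16.4). Col24a1, its relative, had 18 and 7 reads, and Col2a1, the cartilage chain, 9 and 1, both under a mean of 1 CPM. Col11a2 had 6 and 5 reads, so a difference in it was not detectable at this depth.

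The stretch before the transcription start was compared for chains that were lower together. RefSeq promoter windows (GRCm38.p6) were found for 35 of the 44 chains, in 38 windows, and Col1a1 and Col5a2 had none. Of these, 4 are shown because they contrast lower fibrillar chains with a level chain. Each is written 5′ to 3′ on the gene's strand and ends at or just before the start, with bases in an annotated exon removed. Capitals mark the letters CCAAT, known as the CCAAT box, the letters TATAAA, known as the TATA box, and the letters GGGCGG, known as the GC box, searched on both strands, with no overlap among the matches shown.
Col3a1, chr1:45311288-45311537, plus strand: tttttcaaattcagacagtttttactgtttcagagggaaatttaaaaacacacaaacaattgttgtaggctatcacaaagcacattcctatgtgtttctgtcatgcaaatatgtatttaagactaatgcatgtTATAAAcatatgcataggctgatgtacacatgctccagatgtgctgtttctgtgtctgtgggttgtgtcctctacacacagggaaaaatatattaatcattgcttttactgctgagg
Col5a1, chr2:27886175-27886424, plus strand: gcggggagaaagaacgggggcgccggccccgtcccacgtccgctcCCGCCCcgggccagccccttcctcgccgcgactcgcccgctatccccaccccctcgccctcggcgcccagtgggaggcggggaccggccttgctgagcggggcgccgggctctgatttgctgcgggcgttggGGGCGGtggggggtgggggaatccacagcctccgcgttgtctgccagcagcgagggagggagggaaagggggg
Col5a3, chr9:20815068-20815317, minus strand: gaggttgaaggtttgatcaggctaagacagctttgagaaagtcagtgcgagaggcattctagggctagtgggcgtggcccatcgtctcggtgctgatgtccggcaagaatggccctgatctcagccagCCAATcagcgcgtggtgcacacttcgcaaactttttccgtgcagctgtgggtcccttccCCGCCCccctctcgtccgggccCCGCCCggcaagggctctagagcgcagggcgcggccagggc
Col18a1, chr10:77166549-77166780, minus strand: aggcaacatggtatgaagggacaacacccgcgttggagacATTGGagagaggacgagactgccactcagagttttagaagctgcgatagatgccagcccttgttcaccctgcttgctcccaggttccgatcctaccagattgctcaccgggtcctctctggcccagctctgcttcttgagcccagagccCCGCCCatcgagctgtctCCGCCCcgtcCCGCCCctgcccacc

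The printed windows differed widely in composition although Col3a1 and Col5a1 were lower by overlapping amounts. The Col3a1 window had 35.2% G and C bases, 0 CpG dinucleotides and 1 TATA box, while that of Col5a1 had 76.4% G and C, 28 CpG and 2 GC boxes. A GC box was found in 10 of 15 windows of the chains at least 2-fold lower and in 2 of 5 windows of the chains within 2-fold, against 32.7% of 32851 windows of 250 bases over all genes and 22 of 38, or 57.9%, of all collagen windows. For the CCAAT box the counts were 6 of 15 and 2 of 5, against 33.8%, and for the TATA box 1 of 15 and 0 of 5, against 12.4%. Of the chains within 2-fold, Col18a1 had another window, not shown, with 241 of 250 bases in an annotated exon and no box of any kind. The windows of Col19a1 and Col20a1 had no box either, while that of Col4a5 had a CCAAT box and a GC box. The 15 windows belong to 14 chains, with Col6a2 counted in 2 windows, and the 5 windows to 4 chains. Among the lower chains, Col8a1, Col11a1, Col15a1, Col16a1 and Col27a1 passed the level filter through WT alone, as did Col4a5 among those within 2-fold. No difference between the 2 sets of windows is read. The matches are a description of letters and not of binding.

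Type IV chains together were lower by less than the fibrillar chains together, and unequally among themselves. Col4a1 (chromosome 8, 11198423 to 11312826) and Col4a2 (11312805 to 11449287) encode the chains of the common basement membrane network and are transcribed away from each other from starts that overlap by 22 bases. Col4a1 had 161 reads in WT and 41 in KO, 13.3 and 2.66 CPM, 5.02-fold lower (3.54 to 7.25). Col4a2 had 132 and 64 reads, 10.9 and 4.15 CPM, 2.63-fold lower (1.94 to 3.61). Within a library the ratio of Col4a1 to Col4a2 per kb of transcript was 1.19 in WT and 0.625 in KO, a change of 0.526-fold (0.324 to 0.847) by counting error. Relative to Col1a1, Col4a1 was 2.42-fold (1.66 to 3.45) and Col4a2 4.60-fold (3.33 to 6.30) more abundant in the KO library than in the WT library.

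The other type IV chains form specialised membranes in kidney, lung and ear. Col4a5 had 17 and 14 reads, 1.55-fold lower with an interval from 0.720 to 3.40. Col4a3 had 5 and 4 reads and Col4a4 8 and 12, and these neighbours lie head to head on chromosome 1, 0.071 kb apart. Their intervals hold 1, and no difference was detectable at this depth. Col4a6 was listed at 0 in both libraries.

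Col6a1, Col6a2 and Col6a3 of type VI were together 10.7-fold lower (9.51 to 12.1), an interval that overlaps that of the fibrillar chains. The type XII chain Col12a1 was lower by less than Col1a1, Col1a2, Col3a1 and Col5a1, while its interval overlaps those of Col5a2 and Col5a3. Type VI collagen forms beaded filaments around cells from the products of Col6a1, Col6a2 and Col6a3. Col6a1 (chromosome 10, 76708792 to 76726168) had 1169 reads in WT and 137 in KO, 96.8 and 8.88 CPM, 10.9-fold lower (9.13 to 13.1). Col6a2, on the same strand 85.2 kb away, had 884 and 100 reads and was 11.3-fold lower (9.17 to 14.0). Col6a3 on chromosome 1 had 434 and 59 reads and was 9.40-fold lower (7.15 to 12.6). The 3 intervals overlap. The alternative chains Col6a4, Col6a5 and Col6a6, which lie in a row on chromosome 9, had 1 read in all.

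Fibril-associated collagens sit on the surface of fibrils with an interrupted helix. Col12a1 (chromosome 9, 79598991 to 79718831), the most abundant of them, had 1910 reads in WT and 262 in KO, 158 and 17.0 CPM, 9.31-fold lower (8.18 to 10.6). Its upper bound lies below the lower bounds of Col1a1 and Col1a2, and its ratio to Col1a1 was 1.30-fold higher (1.12 to 1.51) in the KO library. Col16a1 had 32 and 7 reads, 5.84-fold lower (2.53 to 15.7), and Col14a1 24 and 6 reads, 5.11-fold lower (2.03 to 15.3). Col9a3 had 17 and 12 reads, with an interval from 0.815-fold to 4.15-fold lower, and 6.07% of its exonic bases overlap Tcfl5 on the opposite strand. Col8a1, a short chain of vessel wall networks, had 32 reads in WT and 2 in KO, 20.4-fold lower with an interval from 5.21 to 176.

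Col18a1, Col20a1 and Col19a1 did not share the difference. Col18a1 (chromosome 10, 77052178 to 77166548) encodes a basement membrane collagen whose end piece is released as endostatin, an inhibitor of vessel growth. It had 1304 reads in WT and 1465 in KO, 108 and 94.95 CPM, 1.14-fold lower (1.05 to 1.23). Col20a1 (chromosome 2, 180986535 to 181018363), a little-studied fibril-associated chain, had 140 and 167 reads, 11.6 and 10.8 CPM, 1.07-fold lower with an interval from 0.849 to 1.35. Col19a1 (chromosome 1, 24261890 to 24587472), another fibril-associated chain, had 41 reads in WT and 79 in KO, 3.39 and 5.12 CPM, a ratio of 1.51 (1.02 to 2.26). It was the tested chain with the highest ratio, while Col9a1, 9.21 kb away on the same chromosome, was listed at 0 in both libraries. The intervals of these 3 chains lie apart from those of each chain of types I, III, V, VI and XII with at least 1 CPM in both libraries.

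Col15a1 is the closest relative of Col18a1, both having endostatin-like ends. It had 23 reads in WT and 8 in KO, 1.90 and 0.519 CPM, 3.67-fold lower (1.59 to 9.50). Col15a1 reached the level filter through the WT library alone, so its difference from Col18a1 is not read as a result.

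**Figure D2:**
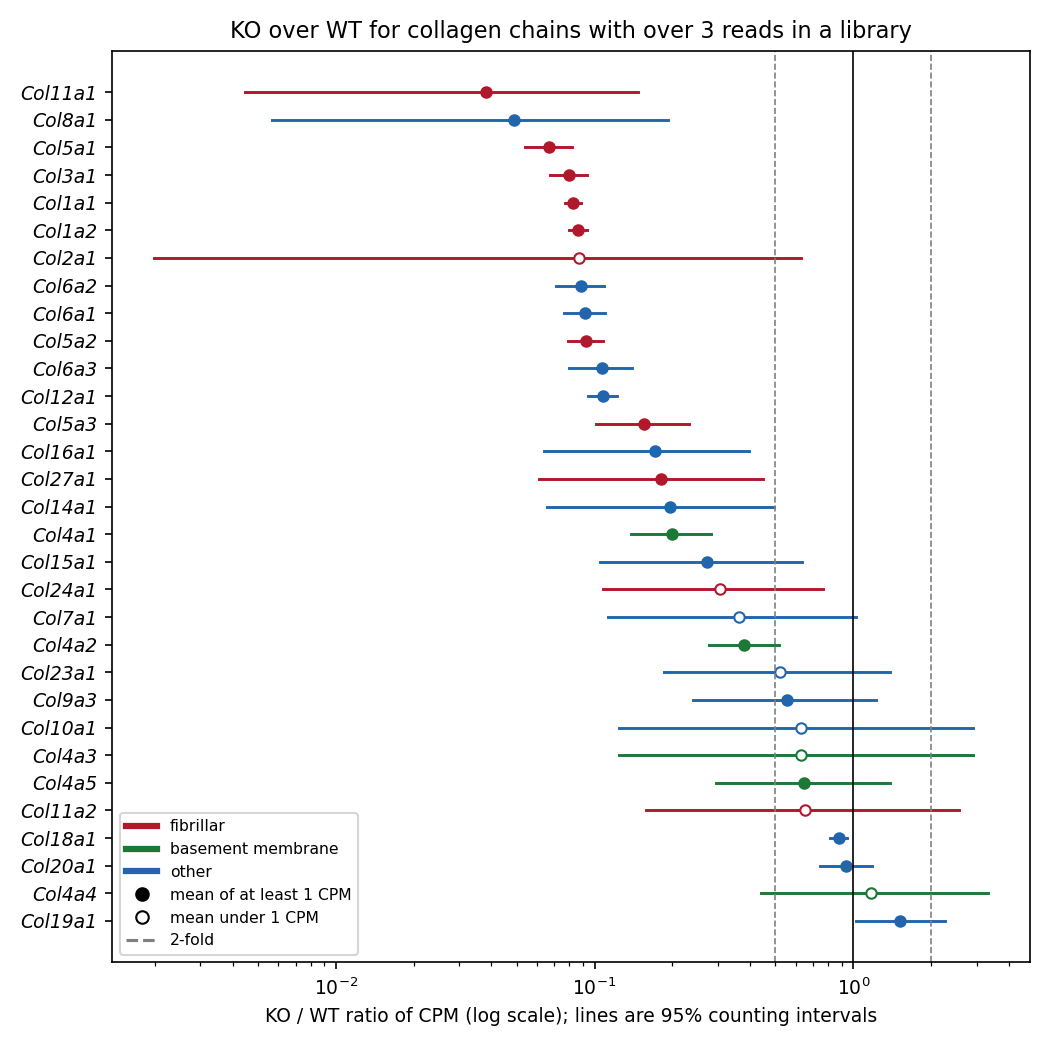
KO over WT ratio of CPM (x axis, log scale) with 95% counting intervals for the 31 collagen chains with over 3 reads in a library, coloured by class, with filled circles for chains averaging 1 CPM or more and dashed lines at 2-fold. The chains of types I, III, V, VI and XII lie to the left, from 15.0-fold lower for Col5a1 to 6.43-fold lower for Col5a3, and Col18a1, Col20a1 and Col19a1 lie at or near 1.

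Transmembrane and anchoring chains were scarcely read. Col23a1 had 12 and 8 reads, Col7a1, the anchoring fibril of skin, 13 and 6, and Col10a1, the chain of growth plate cartilage, 5 and 4, and their intervals hold 1. Col17a1, Col22a1, Col25a1, Col6a4 and Col8a2 had at most 2 reads in either library. The 8 chains listed at 0 in both libraries were Col13a1, Col26a1, Col28a1, Col4a6, Col6a5, Col6a6, Col9a1 and Col9a2, for which the floor of 3 reads is 0.248 CPM in WT and 0.194 CPM in KO, and the upper 95% Poisson limit of a count of 0 is 0.305 and 0.239 CPM. These limits cover counting error and not the listing of genes at 0, as seen for Tagln.

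The makeup of the collagen reads differed between the libraries. Fibrillar chains gave 75.4% of 25873 collagen reads in WT (74.9 to 75.9, exact binomial interval) and 46.0% of 4561 in KO (44.6 to 47.5). The share of Col18a1 was 5.04% in WT (4.78 to 5.31) and 32.1% in KO (30.8 to 33.5). Type IV chains gave 1.25% and 2.96%, and Col20a1 0.541% and 3.66%. Collagen reads were 0.220% of all counted reads in WT and 0.0288% in KO.

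**Figure D3:**
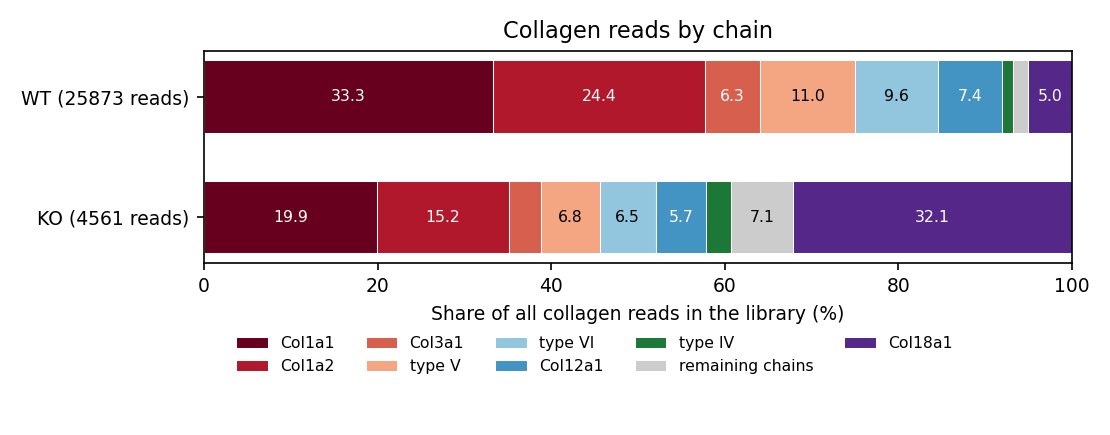
Share of all collagen reads (x axis, percent) taken by single chains or types with 1 bar for WT and 1 for KO. Col1a1 takes 33.3% in WT and 19.9% in KO, and Col18a1 5.04% in WT and 32.1% in KO.

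Divided by transcript length, the order of the chains changed at the top. Per kb of the principal GENCODE transcript, Col1a1 was first in the WT library at 120 CPM per kb, followed by Col1a2 at 97.7, Col3a1 at 24.2, Col6a1 at 23.6 and Col18a1 at 22.5. In the KO library Col18a1 was first at 19.8 CPM per kb, followed by Col1a1 at 9.94, Col1a2 at 8.42, Col6a1 at 2.17 and Col20a1 at 2.16. Neighbours such as Col3a1, Col6a1 and Col18a1 in WT are close enough for the choice of transcript to decide their order.

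The balance between chains that build 1 molecule, and that between the separate types I and III, was compared within each library. Type I collagen contains 2 alpha 1 chains for each alpha 2 chain, and the level of Col1a1 over that of Col1a2 per kb was 1.23 in WT and 1.18 in KO, a change of 0.957-fold (0.862 to 1.06). Col6a1 over Col6a2 per kb was 1.27 and 1.32, and the change of 1.04-fold (0.783 to 1.38) also holds 1. Col1a1 over Col3a1 was 4.97 and 5.14, a change of 1.03-fold (0.868 to 1.24). As for type IV, the interval for type V lay apart from 1. Col5a1 over Col5a2 per kb was 0.608 in WT and 0.440 in KO, a change of 0.724-fold (0.554 to 0.941), and Col5a3 over Col5a1 was 0.177 and 0.412, a change of 2.32-fold (1.44 to 3.67). An interval that holds 1 does not show that a balance was equal.

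Enzymes and chaperones of collagen synthesis divided into genes that were level and genes that were lower with the chains. Of 18 folding and modification genes 16 were tested, with a median log2 ratio of -0.41. In the KO library 7 were at least 2-fold lower, against 3.95% of all genes tested, and 9 within 2-fold. P4ha3 and P3h4, among the 7, were under 1 CPM in KO and passed the filter through WT alone. Of all genes passing that way 62.0% were 2-fold lower, so nothing is read from these 2 calls. Serpinh1, the collagen-specific chaperone HSP47, stood at 71.0 CPM in WT and 5.77 CPM in KO, 12.3-fold lower (9.89 to 15.5). Fkbp10, a collagen prolyl isomerase, was 12.6-fold lower, Plod2, a lysyl hydroxylase of the chain ends, 7.63-fold and P4ha2, a prolyl hydroxylase subunit, 3.29-fold lower. P4ha3 had 30 reads in WT and 0 in KO, at least 12.8-fold lower against a floor of 3 reads, with 9.76-fold as the lower bound of its 95% interval. The general enzymes P4ha1 (197 and 175 CPM), P4hb (476 and 442.3 CPM), Ppib (69.9 and 70.6 CPM) and Colgalt1 (224 and 268 CPM) were close between the libraries.

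Among 14 genes of export and propeptide cleavage 9 were tested, with a median log2 ratio of -0.94. At least 2-fold lower were 4, against 3.95% of all genes tested, and 5 were within 2-fold. Adamts14, 1 of the 4, was under 1 CPM in KO and passed the filter through WT alone, so its call is not read. Adamts2, which removes the amino-terminal propeptide, was 12.8-fold lower (7.86 to 22.0), Bmp1, which removes the carboxy-terminal propeptide, 8.02-fold, and its enhancer Pcolce 6.51-fold lower. Creb3l1, a transcription factor of collagen-secreting cells, was 1.96-fold lower, whereas Mia3, the export receptor, stood at 148 and 140 CPM. Mia2 and Tll1 were listed at 0. Of 5 lysyl oxidase genes, which crosslink fibrils, 4 were tested and 2 were at least 2-fold lower, against the same 3.95% of all genes. Loxl1 and Loxl2 were 13.0-fold and 10.4-fold lower, while Lox stood at 174 CPM in WT and 102 CPM in KO, 1.71-fold lower (1.60 to 1.83), and Loxl3 was 1.38-fold lower.

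Receptors and proteases that meet collagen outside the cell went both ways. Of 10 receptor genes 6 were tested, 2 at least 2-fold lower, against 3.95% of all genes tested, and 4 within 2-fold. Their median log2 ratio was -0.35, or 0.45 over those with a mean of at least 10 CPM. Ddr2, a collagen receptor kinase of mesenchymal cells, was 11.9-fold lower, and Itga11, an integrin chain of fibroblasts named after its value was seen, 16.9-fold lower. Itga11 was under 1 CPM in KO and passed the filter through WT alone, so its call is not read. Lair1, an inhibitory collagen receptor of leukocytes, stood at 122 CPM in WT and 202 CPM in KO, a ratio of 1.67. The integrin chain genes Itga1 and Itgb1 had ratios of 0.639 and 1.13. Of 10 cleavage and uptake genes, all tested, 2 were at least 2-fold lower, 1 higher and 7 within 2-fold, with a median log2 ratio of -0.41. Over all genes tested 3.95% were at least 2-fold lower and 2.02% higher. Mrc2, the collagen uptake receptor Endo180, was 6.76-fold lower, and the gelatinase gene Mmp2 4.46-fold lower. Mmp9, the other gelatinase gene, stood at 126 CPM in WT and 732 CPM in KO, and Mmp13, a collagenase gene, at 79.6 and 44.1 CPM.

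**Figure D4:**
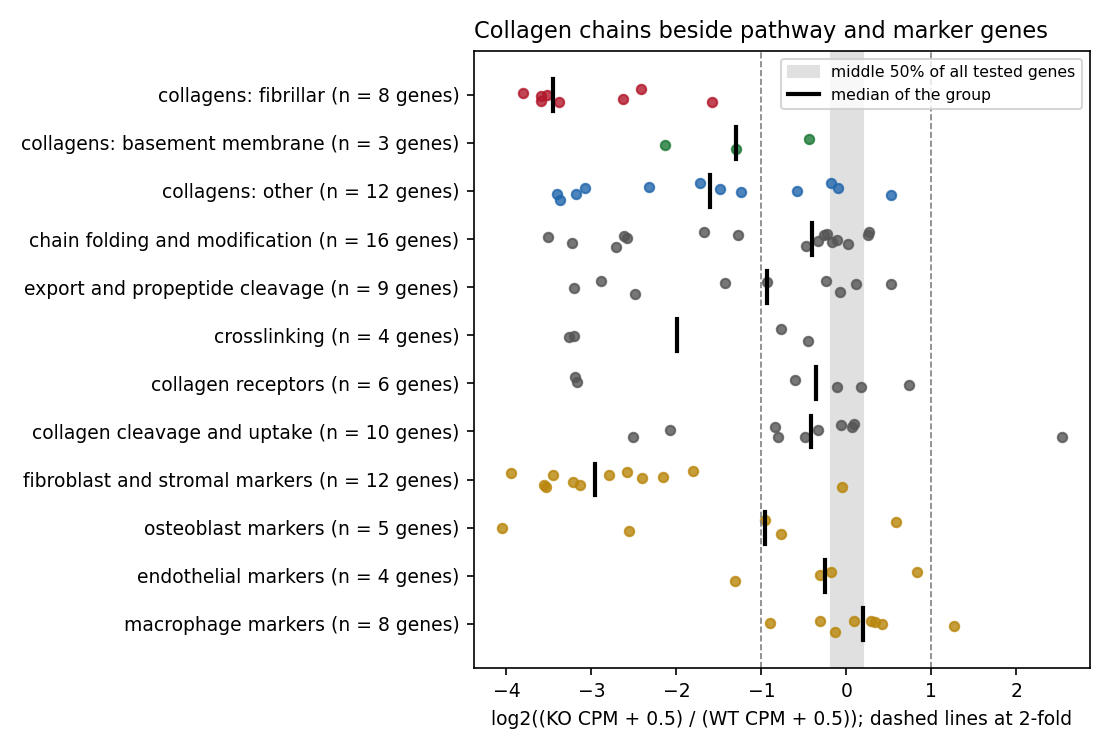
Log2 KO/WT ratios with 0.5 CPM added (x axis) for tested collagen chains by class, for genes of collagen synthesis and handling, and for cell type markers, with 1 point per gene, black bars for medians and a grey band for the middle 50% of all tested genes. The fibrillar chains (median -3.45) and the stromal markers (median -2.96) lie far left of the band, whereas type IV (median -1.30) lies nearer to it.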

How the data were processed

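The authors' deposited table held raw read counts per gene symbol for 46095 genes, with 1 column for each library, per the file headers, and no row lacked a name. Per the submitters' processing notes, HISAT2 and the GRCm38 build were used. How reads were counted, with which annotation and strand setting, is not given in the sources used here. For that reason reads in overlapping or antisense exons may be assigned to either gene.

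Counts were divided by TMM effective library sizes (edgeR 4.0.16 in R 4.3.3) to give CPM. The log2 ratio used CPM plus 0.5, which understates the change of low genes, and genes averaging 1 CPM or more were called tested. Ratios were taken without the 0.5 and carry exact Clopper-Pearson 95% intervals on how reads divided between the libraries (scipy 1.17.1). Changes of a ratio between 2 sets of genes carry exact conditional odds ratio intervals. PCR duplicates are not independent molecules, so these intervals cover counting error only. Called means past 2-fold. With 1 library per group no test has residual degrees of freedom. Positions and transcript lengths came from GENCODE release M21, which uses GRCm38, in which all 44 symbols were found. Per-length levels used the APPRIS principal transcript. The calculation was tested on simulated data.

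The members and the gene lists were chosen with earlier results of these data known. Named were each chain with its reads, up to 4 genes per list, ranked by absolute log2 ratio among those averaging 5 CPM or more, list genes at 0 in both libraries, and Tnfaip8l1. A list gene that this rule takes is not reported here. Chosen after their values were seen were the sets without Col18a1, Col19a1 and Col20a1, the osteoblast sum without Spp1, and the other list genes named. Among these genes were Thy1, Pdgfra, Dcn, Pdgfrb, Lum, Bgn, Fbn1, Cxcl12, Sp7, Cdh5, Emcn, Csf1r, Cd68, P4hb, Colgalt1, Mia3, P4ha3, P3h4, Adamts14 and Itga11. Alternatives covered scaling (total counts, DESeq2 1.42.0 size factors), depth, the added value, the filter and the call rule.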

Additional observations from a re-analysis of the deposited data

How the results depend on the processing

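No paired analysis was possible because WT and KO were single libraries with nothing to pair. The 18 collagen chains at least 2-fold lower stayed 18 in number with total counts, DESeq2 size factors, a thinned KO library or 0.1 CPM added. With 2 CPM added there were 14 (Col14a1, Col15a1, Col16a1 and Col27a1 were no longer past 2-fold), without a filter 20, and 16 when the interval bound had to reach 2-fold. Among chains averaging 10 CPM or more there were 9, since 11 chains and no type IV chain remained. Genes at least 2-fold lower and higher, 494 and 252, were 313 and 156 with 2 CPM added and 92 and 112 among genes averaging 10 CPM or more, and 133 were higher by the interval bound. With 2 CPM added the median log2 ratio was -1.34 for tested chains, -0.83 for other types and -1.62 for crosslinking genes. Without a filter it was -1.19 for chains, -2.63 for fibrillar, -0.44 for type IV, -0.57 for other types and -1.14 for crosslinking genes. With Col7a1, Col15a1 and Col18a1 moved from the other types to type IV it was -1.24 for that class and -2.02 for the other types. Under the 10 CPM filter it was -0.16 for export and cleavage, -0.77 for crosslinking and 0.45 for receptor genes. The ratio of summed collagen CPM, 0.138, was 0.131 with total counts, 0.166 without Col1a1, 0.0986 without Col18a1 and 0.0915 without Col18a1, Col19a1 and Col20a1, the last 2 chosen after seeing the data, as was TMM scaling without collagen and stromal marker genes. Of 138 recomputed log2 ratios of single chains, 119 lay within the chain's counting interval and 19 did not, 12 of these with 2 CPM added and 7 for Col8a1 and Col11a1, whose reported log2 ratios already lie outside their intervals because of the added 0.5 CPM. No recomputed value turned the direction of a chain past 2-fold. Depth limits the chains under about 1 CPM, whose intervals mostly span several-fold.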
